A study of Homo sapiens with 6 samples.

Results

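Transcripts of 10 genes that set how a cell enters the division cycle were followed across 6 RNA sequencing libraries from K562 cells, an established cell line from chronic myeloid leukaemia. The genes were the D cyclins CCND1, CCND2 and CCND3, their kinases CDK4 and CDK6, the CIP/KIP inhibitors CDKN1A, CDKN1B and CDKN1C, and the INK4 inhibitors CDKN2C and CDKN2D. They were taken by NCBI Gene identifier from tables that list 25702 identifiers each, and all 10 passed the filter on low counts with 15431 genes in all. The cells had been transfected with a pCMV-HA plasmid, in which the cytomegalovirus promoter drives an HA-tagged protein. The plasmid was empty (EV), carried MXD3, or carried the fusion STIM1::MXD3, and the cells had no other treatment according to the labels. Each group had 2 libraries, numbered replicate 1 and replicate 2, which the study describes as independent transfections of 1 cell line, so errors and p-values measure the spread between transfections only. RNA was taken from whole cultures, in which fewer expressing cells and less RNA per cell cannot be told apart, and no selection of the cells that took up plasmid is described for these libraries.

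D cyclins bind CDK4 or CDK6, and the active kinases phosphorylate the retinoblastoma protein RB, which then releases the E2F factors that drive genes of DNA replication. INK4 proteins bind the 2 kinases and keep cyclins away, whereas CIP/KIP proteins bind cyclin-kinase complexes and block CDK2 most strongly. MYC, paired with MAX, is known for activating CCND2 and CDK4 and for repressing CDKN1A, and MXD3 competes with MYC for MAX and for the E-box CACGTG, where it recruits repressors. The fusion starts with STIM1 sequence in place of the repression domain at the amino terminus of MXD3. K562 cells are known to lack functional p53, the main activator of CDKN1A, and to have lost the locus of the INK4 genes CDKN2A and CDKN2B.

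Because MXD proteins bind the E-box CACGTG, the promoters of the genes were searched for it first. The RefSeq promoter table (build GRCh38.p14, 250 bases before and 50 after each start) held 12 windows for 7 of the 10 genes, and CCND1, CCND2 and CDKN1C had no entry. CACGTG reads the same on both strands, so 1 search covered both. It was present in at least 1 window of 3 of the 7 genes, CDK4, CDK6 and CDKN2C, and in no window of CCND3, CDKN1A, CDKN1B or CDKN2D. Of the 11468 tested genes with an entry 12.25% held it, as did 7.256% of all 35116 windows. The window of CDK4 held 3 E-boxes, beginning at positions -216, -196 and -101 from the start, whereas 21 of the tested genes (0.1831%) held 3 or more in 1 window. A match of letters is a description and not evidence of binding. The 250 bases before the start of CDK4 (GRCh38.p14 chr12:57752311-57752560, minus strand), and 30 bases around the E-box of CDKN2C (chr1:50960513-50960542 and chr1:50970164-50970193, plus strand) and of CDK6 (chr7:92836526-92836555, minus strand), are shown to let the sites be compared, with the E-box in capitals.
CDK4: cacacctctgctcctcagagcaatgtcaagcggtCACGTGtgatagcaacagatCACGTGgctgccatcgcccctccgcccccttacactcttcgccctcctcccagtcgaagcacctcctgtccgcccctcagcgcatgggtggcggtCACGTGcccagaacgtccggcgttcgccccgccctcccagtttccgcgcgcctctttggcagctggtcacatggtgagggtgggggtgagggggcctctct
CDKN2C, upstream window: gattgtgcacctCACGTGgttagtcacaca
CDKN2C, downstream window: ttgctgaataatCACGTGtgaatcgagggg
CDK6: cgaggccgcggaCACGTGcggagagccgac
The E-boxes of CDKN2C began at positions -220 and -69 from their starts. That of CDK6 began at base 31 of the transcript.

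The libraries held between 53048343 and 63835779 counts. The level of MXD3, in counts-per-million (CPM) scaled by the TMM method, was 9.33 and 11.7 in EV, 2523 and 2162 with MXD3 and 1975 and 1849 with the fusion. STIM1 lay between 159.3 and 204.5 CPM in the other 4 libraries and at 471.4 and 453.0 CPM with the fusion, so the labels and the counts of both plasmid genes matched. All 10 markers of K562 and erythroid cells were detected in every library, and their summed level was 7199 to 10020 CPM. Summed markers of monocytes and granulocytes were at 37.5 to 49.7 CPM, those of T cells and B cells at 15.0 to 22.1 CPM and those of epithelium and fibroblasts at 81.3 to 104 CPM. Most of the last 2 sums came from 1 gene each, CD3D at 13.4 to 19.8 CPM and EPCAM at 77.9 to 100.5 CPM, and 3 or 4 of the 6 genes in each of these lists were under 1 CPM.

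CCND3 was by far the main D cyclin transcript of these cells and CDK4 the main kinase transcript. To compare levels between genes, CPM were divided by the length of the canonical transcript in kb. In EV the level was 181.9 ± 7.88 CPM per kb (SD, n = 2) for CCND3, 8.11 ± 0.425 for CCND2 and 1.74 ± 0.672 for CCND1. CCND3 therefore made up 94.9% of the D cyclin level in EV, 94.6% with MXD3 and 94.5% with the fusion. CDK4 stood at 134.7 ± 0.360 CPM per kb in EV and CDK6 at 14.3 ± 0.281, a share of 90.4% ± 0.151 for CDK4, which was 90.2% ± 0.604 with MXD3 and 91.3% ± 0.602 with STIM1::MXD3. Among the INK4 genes CDKN2C held 91.0% ± 0.204 in EV, 91.5% ± 1.04 with MXD3 and 92.7% ± 0.346 with the fusion.

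The CIP/KIP inhibitors were more evenly mixed, with 53.9 ± 12.5 CPM per kb for CDKN1C, 25.7 ± 0.0185 for CDKN1B and 18.9 ± 4.82 for CDKN1A in EV. The share of CDKN1C was 60.4% in EV replicate 1 and 48.4% in EV replicate 2. It was 54.8% and 36.7% with MXD3, and 60.5% and 36.5% with the fusion, so the composition differed more between the replicate numbers than between plasmids. In order of EV level, the genes ran CCND3, CDK4, CDKN2C, CDKN1C, CDKN1B, CDKN1A, CDK6, CCND2, CDKN2D and CCND1. The neighbours CDKN2C and CDKN1C differed by less than the SD of either, and CDKN1A and CDK6 by less than the SD of CDKN1A but more than that of CDK6. The order depends on the transcript length used: per kb of all annotated exons CDK4 (81.2 CPM per kb) lay above CCND3 (63.97), and CDKN1C (38.5) above CDKN2C (19.3). CDKN1B (6.705) then lay below both CDK6 (13.66) and CDKN1A (13.32). With that length CDKN1C held 65.35% of the CIP/KIP level in EV, CDKN1A 23.14% and CDKN1B 11.51%.

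**Figure D1:**
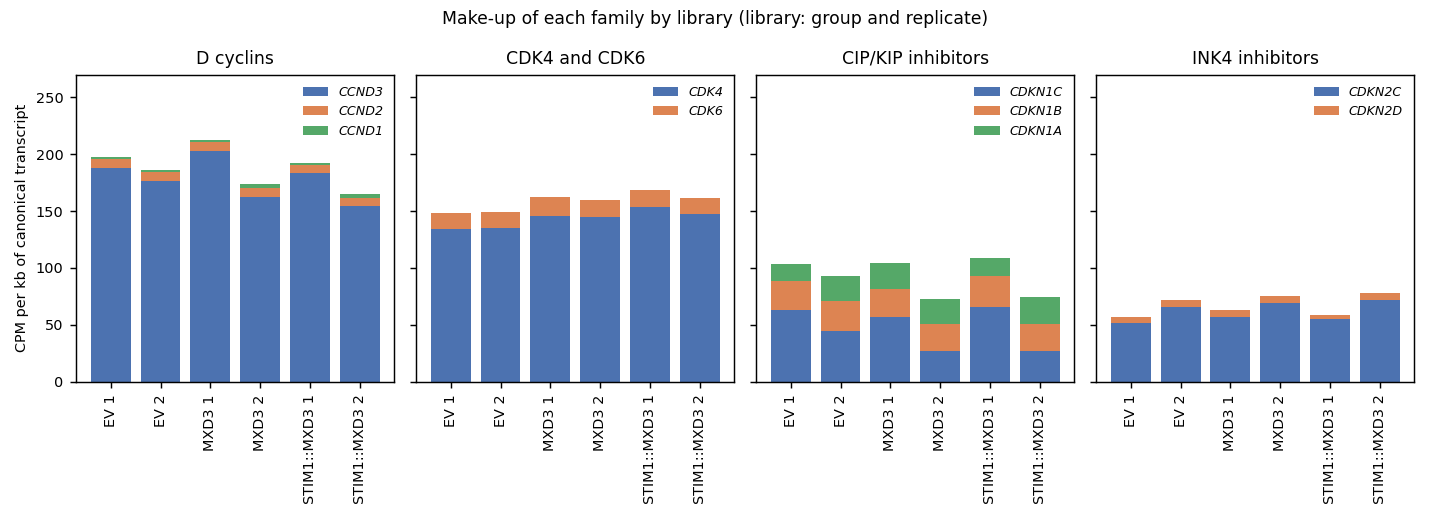
Stacked levels of the genes of each family in the 6 libraries, in TMM-scaled CPM per kb of canonical transcript, with 1 bar per library named by group and replicate number. CCND3, CDK4 and CDKN2C fill most of their bars in every library, and the CDKN1C segment is smaller in replicate 2 of each group.

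Summed over a family, the kinases were at 149.0 ± 0.626 CPM per kb in EV, 160.7 ± 1.71 with MXD3 and 165.0 ± 5.37 with the fusion. The D cyclins were at 191.7 ± 7.64, 192.9 ± 27.4 and 178.8 ± 19.5 in the same order, so D cyclin transcripts per kinase transcript were 1.29 ± 0.0561, 1.20 ± 0.158 and 1.08 ± 0.0830. This ratio was lower with each construct than in EV in both replicate pairs. In replicate 1 it was 1.14 with the fusion and 1.31 with MXD3 against 1.33 in EV. In replicate 2 it was 1.02 and 1.09 against 1.25. INK4 transcripts per kinase transcript were 0.432 ± 0.0698, 0.431 ± 0.0590 and 0.416 ± 0.0939, differences well within the SD. These ratios depend on the transcript length used. Per kb of all annotated exons, D cyclin transcripts per kinase transcript were 0.760 ± 0.0304, 0.709 ± 0.0773 and 0.646 ± 0.0366. They were again lower with each construct than in EV in both pairs. INK4 transcripts per kinase transcript were 0.262 ± 0.0427, 0.258 ± 0.0318 and 0.247 ± 0.0578. With that length CCND3 held 88.7% of the D cyclin level in EV, CDK4 85.6% of the kinase level and CDKN2C 78.0% of the INK4 level. No test was run on these sums.

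The first comparison asked what the fusion changed against EV, and none of the 10 genes passed in it. In the edgeR quasi-likelihood test 0 members had an adjusted p under 0.05, Benjamini-Hochberg over all 15431 genes, against 0.00648% of all genes tested, and 0 had an unadjusted p under 0.05, against 0.953%. With the replicate number as a block, 0 members passed (0.0194% of all genes) and 2, CCND1 and CDKN1C, had an unadjusted p under 0.05, a share to read beside 8.50% of all genes. Both fusion libraries lay above both EV libraries for CDK4 and below them for CCND2, 2 of 10 genes beside 22.0% of all genes. In 7 of 10 genes the difference had the same direction in both replicate pairs, beside 52.3%. DESeq2 called 0 members as well, in each of the 3 plasmid comparisons. STIM1, part of the fusion plasmid and 2.43-fold higher than in EV, was not called without the block either (adjusted p = 0.359, edgeR). With the block it was called (adjusted p = 4.27e-07, edgeR). A lack of calls without the block therefore does not by itself mean a smaller change than that. The median log2 fold change was -0.012 over the 10 genes and 0.010 over all genes tested.

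For MXD3 against EV 0 members were called (0.00648% of all genes) and 0 at an unadjusted p under 0.05 (1.86%). With the block 0 passed (0.292%), while CCND1, CDKN1A and CDKN1C had an unadjusted p under 0.05, where 13.9% of all genes did. Groups did not overlap for 3 of 10 genes, CDK4 and CDK6 with higher and CDKN1B with lower levels in both MXD3 libraries, against 31.0% of all genes. The direction was the same in both pairs for 6 genes (62.1% of all genes). The median was 0.060 over the members and 0.001 over all genes. Between the constructs 0 members were called (0% of all genes) and 0 had an unadjusted p under 0.05 (1.01%), and with the block both counts were 0 (0.00648% and 6.49%). CDK4 was higher and CCND2 lower in both fusion libraries than in both MXD3 libraries (2 of 10 genes, 21.1% of all genes), and 6 genes had the same direction in both pairs (53.6%). The median was -0.048, and 0.008 over all genes. The comparisons against EV share the EV libraries, so their values are given side by side and not as independent results.

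**Figure D2:**
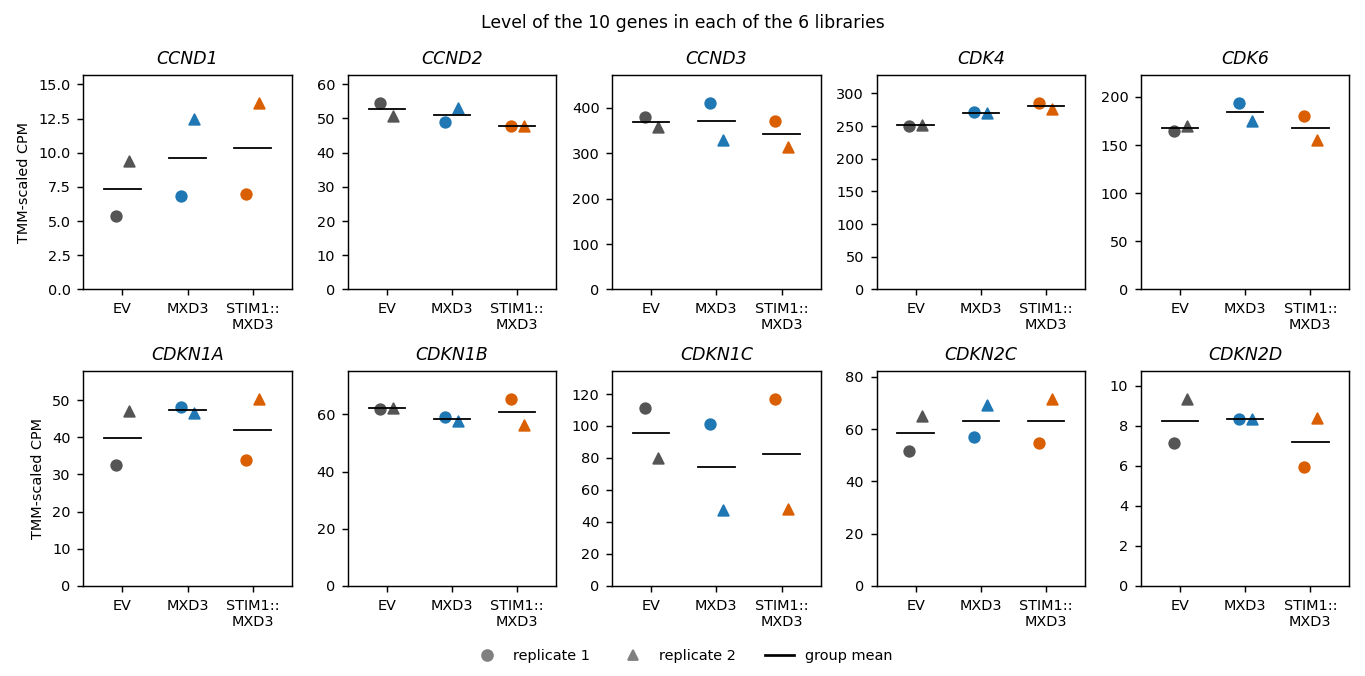
TMM-scaled CPM of each of the 10 genes in the 6 libraries, with circles for replicate 1, triangles for replicate 2 and a line for the group mean; every axis starts at 0 and has its own range. CDK4 steps from EV to MXD3 to STIM1::MXD3 with no overlap, while CCND1 and CDKN1C are split by replicate number in all 3 groups.

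Of the D cyclins, CCND1 (GRCh37 chromosome 11, 69455924 to 69469242, plus strand) was scarce. It had 272 and 567 counts in EV, 440 and 699 with MXD3 and 384 and 860 with the fusion, or 5.34 and 9.37, 6.85 and 12.4, and 7.01 and 13.7 CPM. The level was higher with each construct than with EV inside each replicate pair, but the groups overlapped. The log2 fold change was 0.49 ± 0.44 (SE; 95% interval -0.55 to 1.54) with the fusion, 0.39 ± 0.44 (-0.66 to 1.43) with MXD3 and 0.10 ± 0.44 between them. With the block it was 0.47 ± 0.16 with the fusion (unadjusted p = 0.00967, adjusted p = 0.486, edgeR) and 0.39 ± 0.16 with MXD3 (unadjusted p = 0.0290, adjusted p = 0.303, edgeR).

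CCND2 (chromosome 12, 4378937 to 4414519, plus strand) had 54.6 and 50.7 CPM in EV, 48.9 and 53.1 CPM with MXD3 and 47.7 CPM in both fusion libraries. The fusion libraries were the lowest of the 6, by a log2 fold change of -0.14 ± 0.12 (-0.44 to 0.15) against EV. CCND3 (chromosome 6, 41902672 to 42018095, minus strand) had 379.8 and 357.2 CPM in EV, 411.5 and 328.9 CPM with MXD3 and 371.9 and 312.9 CPM with the fusion. Its groups overlapped in every comparison, with log2 fold changes of -0.11 ± 0.16 for the fusion against EV, 0.01 ± 0.16 for MXD3 against EV and -0.11 ± 0.16 between the constructs.

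CDK4 (chromosome 12, 58141510 to 58149796, minus strand), the main kinase transcript here, was the 1 gene of the 10 whose groups did not overlap in any of the 3 comparisons. Its level was 250.7 and 251.6 CPM in EV, 271.0 and 269.5 CPM with MXD3, and 286.0 and 275.7 CPM with STIM1::MXD3. Every MXD3 library was above every EV library and every fusion library above every MXD3 library. Of all genes tested, groups did not overlap for 22.0% with the fusion against EV, 31.0% with MXD3 against EV and 21.1% between the constructs. The share of all genes without overlap in all 3 comparisons was not counted, so whether CDK4 stands out in this cannot be told. The differences were small, with a log2 fold change of 0.16 ± 0.11 (-0.11 to 0.43), or 1.12-fold, for the fusion against EV (unadjusted p = 0.195, adjusted p = 1.00, edgeR). It was 0.11 ± 0.11 (-0.16 to 0.37) for MXD3 against EV and 0.06 ± 0.11 between the constructs. In the fit with the block the first value stayed at 0.16 ± 0.08 (unadjusted p = 0.0592, adjusted p = 0.602, edgeR). Within pairs the log2 ratio of the fusion to EV was 0.19 in replicate 1 and 0.13 in replicate 2, and that of MXD3 to EV 0.11 and 0.10. CDK4 shares 1369 exon bases, 44.25% of its own, with TSPAN31 on the opposite strand, and the use of strand in counting is not given in the sources used here. TSPAN31, named for this overlap, stood at 15.9 to 18.9 CPM in the 6 libraries.

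CDK6 (chromosome 7, 92234235 to 92465887, minus strand) had 164.9 and 169.6 CPM in EV, 194.1 and 175.3 CPM with MXD3, and 179.8 and 155.7 CPM with the fusion. Both MXD3 libraries exceeded both EV libraries, and the fusion libraries lay on either side of EV. The log2 fold change was 0.14 ± 0.13 (-0.17 to 0.45) with MXD3 and 0.004 ± 0.13 (-0.30 to 0.31) with the fusion. With the fusion the intervals ran from 0.930-fold to 1.35-fold for CDK4 and from 0.810-fold to 1.24-fold for CDK6, so larger changes lay outside them.

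Of the CIP/KIP inhibitors, CDKN1A (chromosome 6, 36644237 to 36655114, plus strand), which encodes p21, had 32.7 and 47.1 CPM in EV, 48.2 and 46.6 CPM with MXD3, and 33.8 and 50.3 CPM with the fusion. EV replicate 1 and fusion replicate 1 were lower than the other 4 libraries. The difference between MXD3 and EV therefore lay in replicate 1 alone, with a log2 ratio of 0.56 in that pair and -0.02 in replicate 2, and 0.25 ± 0.24 (-0.32 to 0.82) in the fit. The block gave 0.28 (unadjusted p = 0.0484, adjusted p = 0.355, edgeR). With the fusion the log2 fold change was 0.08 ± 0.24. CDKN1B (chromosome 12, 12838432 to 12875303, plus strand), which encodes p27, had 62.0 and 62.1 CPM in EV, 59.1 and 57.5 CPM with MXD3, and 65.4 and 56.3 CPM with the fusion. Its log2 fold change was -0.09 ± 0.13 (-0.39 to 0.21) with MXD3 and -0.03 ± 0.13 with the fusion.

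CDKN1C (chromosome 11, 2904443 to 2907005, minus strand), which encodes p57 and is expressed from the maternal allele in most tissues, had the largest difference between replicate numbers with either construct, though in EV those of CCND1 and CDKN1A were larger. It had 111.2 and 79.8 CPM in EV, 101.5 and 47.2 CPM with MXD3, and 116.9 and 47.96 CPM with the fusion. The 3 libraries numbered 1 were all above the 3 numbered 2, whatever the plasmid. Against EV the log2 ratio was 0.07 in replicate 1 and -0.73 in replicate 2 for the fusion, and -0.13 and -0.76 for MXD3. The fitted log2 fold change was -0.21 ± 0.48 (-1.35 to 0.92) with the fusion and -0.36 ± 0.48 (-1.50 to 0.78) with MXD3. With the block it was -0.34 ± 0.14 (unadjusted p = 0.0255, adjusted p = 0.533, edgeR) and -0.46 ± 0.14 (unadjusted p = 0.00412, adjusted p = 0.154, edgeR). With 1 library per plasmid and replicate number, whether the construct effect differs between the replicates could not be tested.

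**Figure D3:**
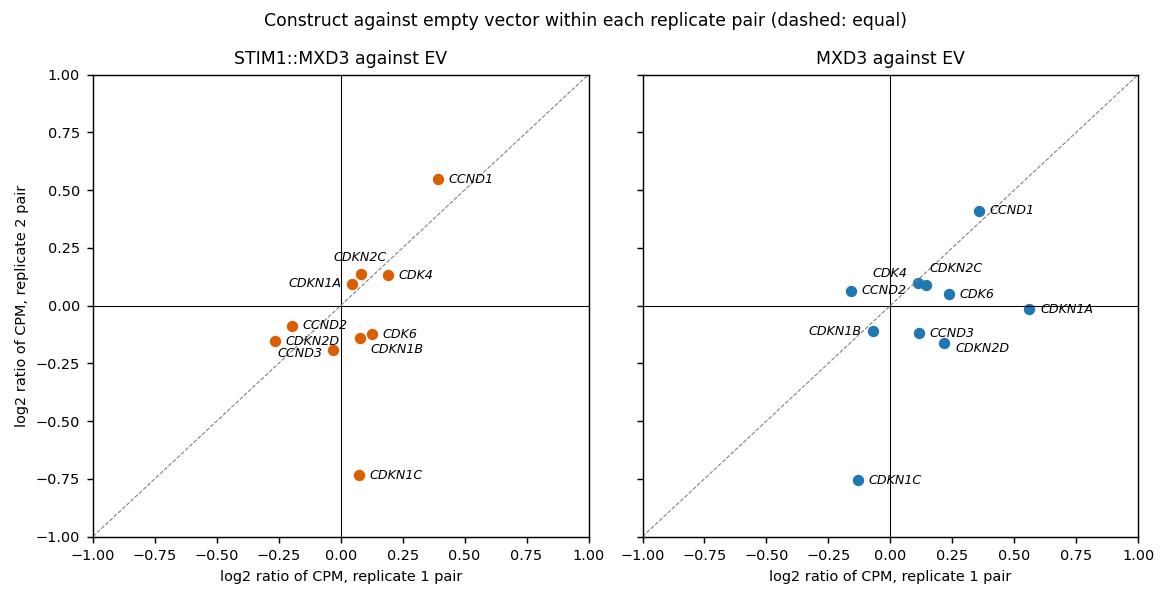
Log2 ratio of CPM, construct over EV, in the replicate 1 pair (horizontal) and the replicate 2 pair (vertical) for the 10 genes, with STIM1::MXD3 in the left panel and MXD3 in the right; the dashed line marks equal ratios. CDK4 lies near the line at 0.19 and 0.13 with the fusion, and CDKN1C lies far below it at 0.07 and -0.73.

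Of the INK4 inhibitors, CDKN2C (chromosome 1, 51426417 to 51440306, plus strand), which encodes p18, had 51.6 and 65.1 CPM in EV, 57.0 and 69.3 CPM with MXD3, and 54.6 and 71.5 CPM with the fusion. It shares 617 exon bases (20.44%) with an antisense RNA that was not analysed here. The libraries numbered 2 were higher in every group, and the log2 fold change was 0.11 ± 0.19 with either construct. CDKN2D (chromosome 19, 10677136 to 10679735, minus strand), which encodes p19, had 7.15 and 9.33 CPM in EV, 8.31 and 8.35 CPM with MXD3, and 5.95 and 8.38 CPM with the fusion. Its log2 fold change was -0.20 ± 0.24 (-0.78 to 0.37) with the fusion and 0.02 ± 0.24 with MXD3. CDKN2A and CDKN2B, the other INK4 genes, had 0 counts in all 6 libraries, which allows a level of up to 0.0467 to 0.0589 CPM (3 counts) by counting error alone, so CDKN2C and CDKN2D were the INK4 transcripts seen.

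**Figure D4:**
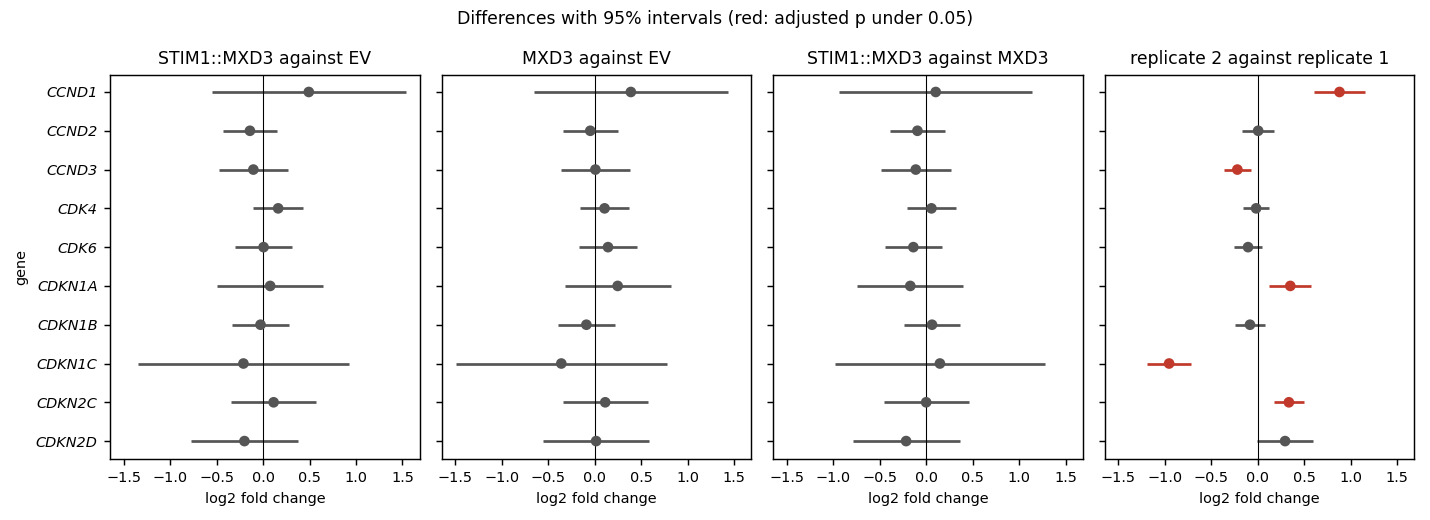
Log2 fold change of each of the 10 genes with its 95% interval in the 3 plasmid comparisons and between replicate numbers, from the edgeR quasi-likelihood fits; red marks an adjusted p under 0.05 over all genes. All intervals of the plasmid comparisons cross 0, and 5 genes are red in the replicate panel. The plasmid panels come from the fit without the block and the replicate panel from the fit with it. With the block, plasmid intervals leave out 0 for CCND1 and CDKN1C with each construct against EV and for CDKN1A with MXD3 against EV. None of these has an adjusted p under 0.05 there.

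The replicate numbers separated several of the genes more than the plasmids did. In a fit with group and replicate number, 5 of the 10 genes differed between libraries numbered 2 and libraries numbered 1 (edgeR, adjusted p under 0.05), where 29.2% of all genes did. Of these 3 were higher in replicate 2, against 13.1% of all genes, and 2 lower, against 16.1%. In 5 of the 10 genes the direction was the same in all 3 groups, beside 58.8% of all genes, and the median was -0.007 beside 0.006. CCND1 was higher by 0.88 ± 0.13 (0.60 to 1.16) on the log2 scale, or 1.84-fold (adjusted p = 1.87e-04, edgeR), with log2 ratios of 0.81 in EV, 0.86 with MXD3 and 0.97 with the fusion. LTO1, a gene on the opposite strand that shares 497 exon bases with CCND1 (10.44% of its exon bases) and is named for that, was higher as well, by 0.55 ± 0.12 (adjusted p = 0.00341, edgeR).

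CDKN1C was lower in replicate 2, by -0.96 ± 0.11 (-1.19 to -0.72), or 0.516-fold (adjusted p = 3.24e-05, edgeR). Its log2 ratio was -0.48 in EV, -1.10 with MXD3 and -1.29 with the fusion. CDKN2C was higher by 0.33 ± 0.08 (adjusted p = 0.00337, edgeR), with log2 ratios between 0.28 and 0.39 in the groups. CDKN1A was higher by 0.35 ± 0.11 (adjusted p = 0.0218, edgeR), but its log2 ratio was -0.05 with MXD3 against 0.53 in EV and 0.58 with the fusion. It did not pass when an EV or a fusion library was left out (adjusted p = 0.0639 to 0.199, edgeR). CCND3 was lower by -0.22 ± 0.07 (adjusted p = 0.0233, edgeR) and did not pass when an MXD3 or a fusion library was left out (adjusted p = 0.0728 to 0.289, edgeR). The fitted difference was closest to 0 for CCND2, at 0.004 ± 0.08, and next for CDK4, at -0.02 ± 0.07 (-0.16 to 0.12). For CCND2 the log2 ratios had opposite signs in EV and with MXD3, at -0.11 and 0.12, and 0.001 with the fusion. For CDK4 they were 0.005 in EV, -0.008 with MXD3 and -0.05 with the fusion.

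Markers of K562 and erythroid cells moved with the replicate number too. Their summed level was 8918 and 8056 CPM in EV, 9508 and 8002 CPM with MXD3, and 10020 and 7199 CPM with the fusion, and 8 of the 10 markers were called lower in replicate 2, beside 16.1% of all genes. GATA1, the defining erythroid factor, was lower by -0.24 ± 0.07 (adjusted p = 0.0121, edgeR). The part of these markers in the replicate differences of CCND1, CDKN1C, CDKN2C, CDKN1A and CCND3 was not tested.

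The rest of the pathway was read from lists of 62 genes, of which 58 were tested, and 0 of them were called by edgeR in a plasmid comparison without the block. At an unadjusted p under 0.05 there were 0 with the fusion, 3 with MXD3 (5.17% of those tested) and 0 between the constructs, where 0.953%, 1.86% and 1.01% of all genes stood. The genes below are named by their rank within the lists and not as calls. Of the 13 RB and E2F proteins, 9 were higher and 4 lower with the fusion than with EV, and likewise with MXD3, with medians of 0.03 and 0.04. Of the 5 tested genes of cyclin E, cyclin A and CDK2, which act after the D cyclins, 4 were higher with each construct. CCNE2, a cyclin E gene, had 9.60 and 10.6 CPM in EV, 11.5 and 17.1 CPM with the fusion and 13.9 and 14.9 CPM with MXD3, and the fusion differed from EV by a log2 fold change of 0.50 ± 0.22 (unadjusted p = 0.0586, edgeR). E2F7, an E2F factor that represses, had 23.4 and 28.4 CPM in EV and 35.4 and 33.9 CPM with MXD3, a log2 fold change of 0.42 ± 0.15 (unadjusted p = 0.0273, adjusted p = 0.9995, edgeR). Between the constructs its value was -0.21 ± 0.15, and that of RBL1, a relative of RB, -0.26 ± 0.19.

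Among the regulators and turnover factors, FOXO1, which activates CDKN1B, was at 1.30 and 1.16 CPM in EV and 1.77 and 2.07 CPM with the fusion (0.65 ± 0.31, unadjusted p = 0.0778, edgeR). FBXO4, an F-box protein linked to cyclin D1 turnover, was at 23.5 and 24.2 CPM in EV and 27.8 and 28.7 CPM with the fusion (0.24 ± 0.13, unadjusted p = 0.0989, edgeR). With MXD3, FOXO1 was at 2.21 and 1.80 CPM (0.71 ± 0.31) and FBXO4 at 27.6 and 28.4 CPM (0.23 ± 0.13). Between the constructs their log2 fold changes were -0.06 ± 0.31 and 0.01 ± 0.13. Of the 17 tested p53 target genes 11 were lower with the fusion and 8 with MXD3. GADD45A, a growth arrest gene, had 176.0 and 156.9 CPM in EV, 119.7 and 131.4 CPM with MXD3 and 148.9 and 137.7 CPM with the fusion. Its log2 fold change with MXD3 was -0.41 ± 0.13 (unadjusted p = 0.0158, adjusted p = 0.9995, and adjusted p = 0.0738 with the block, edgeR), and between the constructs 0.19 ± 0.13. TP53INP1 gave -0.51 ± 0.19 with MXD3 (unadjusted p = 0.0290, edgeR). With the block 1 of the 58 tested pathway genes was called with MXD3, beside 0.292% of all genes. It was the stress cytokine GDF15, at -0.47 ± 0.09 (adjusted p = 0.0481, edgeR). In the same fit GDF15 was at -0.38 ± 0.09 with the fusion against EV (adjusted p = 0.312, edgeR) and at 0.10 ± 0.09 between the constructs.

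Between the replicate numbers 19 of the 58 tested pathway genes were called, or 32.8%, close to the 29.2% of all genes. Of the RB and E2F proteins 3 were called higher and 2 lower in replicate 2, of the cyclin E, cyclin A and CDK2 genes 1 and 1, of the CDK-activating kinase 0 and 2 of 3, of the turnover and assembly factors 0 and 3 of 14, of the regulators of inhibitor genes 0 and 3 of 6, and of the p53 targets 3 and 1. GDF15 was lower by -0.86 ± 0.08 (adjusted p = 3.16e-06, edgeR) and FOXO3, another FOXO factor, by -0.55 ± 0.08 (adjusted p = 1.15e-04, edgeR). TNFRSF10B, a death receptor, was higher by 0.61 ± 0.10 (adjusted p = 4.19e-04, edgeR).

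CCND1 had the largest log2 fold change of the 10 genes against EV in the fit without the block, so the genes most like it were looked up. With the block CDKN1C was further from 0 than CCND1 in MXD3 against EV, at -0.46 against 0.39. Without STIM1::MXD3 replicate 1 CDKN1C was so with the fusion, at -0.99 against 0.89. That fit had no block and left only replicate 2 in the fusion group, so these values mixed plasmid and replicate number. Over the 6 libraries, and among 10249 other genes of at least 5 CPM on average, log2 CPM of TGS1 (r = 0.999), NOP56 and TRMT2B (r = 0.996 each), NMNAT1 (r = 0.995) and DDX51 (r = 0.994) followed CCND1 most closely. These are descriptions over 6 libraries that share the split by replicate number.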

How the data were processed

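The authors deposited 1 table of raw counts per library, keyed by NCBI Gene. Poly A libraries were read from both ends according to the study, and the submitters' processing notes name HISAT2 2.2.1, featureCounts 2.0.1 and the hg19 build. The annotation, strand setting and unit counted (reads or pairs) are not given in the sources used here. Of counts between 1 and 39, 59.8% to 67.3% were even, so halved counts were also tested. Symbols were matched for 23696 of 25702 identifiers, and the rest held 0.225% to 0.276% of counts. Gene positions and lengths came from GENCODE on GRCh37 (the hg19 build).

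Genes were kept by filterByExpr (15431), scaled by TMM and tested, two-sided, by edgeR 4.0.16 quasi-likelihood (R 4.3.3) in 1 fit of 6 libraries, with 1 coefficient per group, and with replicate number added for the replicate comparison. P-values were Benjamini-Hochberg adjusted over all genes, threshold 0.05. Lists were described by counts and medians. Named were the 10 genes, MXD3, STIM1, CDKN2A and CDKN2B, 3 pathway genes per comparison with the smallest p among those with separated groups, and the 5 genes most like the member that moved most. LTO1, TSPAN31, GATA1, CD3D, EPCAM and GDF15 with MXD3 were added after their values were seen. The members and lists were chosen with earlier results of these data known.

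Same-numbered libraries deviated together from their group means. Over all genes tested r was 0.270 between EV and MXD3, 0.364 between EV and the fusion and 0.450 between the constructs. Over the 10250 genes of at least 5 CPM on average it was 0.621, 0.707 and 0.792 in the same order. The numbers were therefore taken as pairs from the counts, since the labels do not say what they share. The main fit of the plasmid comparisons did not use these pairs. Alternatives were the block, DESeq2 1.42.0, RLE factors, other filters, halved counts, 4 libraries and leaving out each library.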

Additional observations from a re-analysis of the deposited data

Results flagged for a closer look

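For 5 of the 10 genes the libraries numbered 2 stood on one side of those numbered 1 in EV and on the other side with a construct, which drew attention to them. The other 5 kept the same direction in all 3 groups, beside 58.8% of all genes tested. In EV the log2 ratios of CDK4 and CDKN1B were only 0.005 and 0.001, so their side there carries little meaning. The share of mitochondrial counts also went one way in EV (2.73% in replicate 1 and 1.54% in replicate 2) and the other way with MXD3 (1.45% and 3.73%) and the fusion (1.56% and 2.90%), and its part in the pattern was not tested. With 1 library per plasmid and replicate number the difference was not tested. For CDKN1A the log2 ratio of replicate 2 to replicate 1 was 0.53 in EV and -0.05 with MXD3, a difference of -0.58. For CDK6 the ratio was lower than in EV by -0.19 with MXD3 and by -0.25 with the fusion. For CCND2 the differences were 0.23 with MXD3 and 0.11 with the fusion, and for CDKN1B -0.04 and -0.22. For CDK4 they were -0.01 and -0.06, the smallest pair of values, and its ratios lay between -0.05 and 0.005 in the 3 groups.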

How the results depend on the processing

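No member was called in a plasmid comparison under any alternative that gave it an adjusted p. DESeq2 with the replicate block gave none to 2 of the 10 members for the fusion against EV (CCND1 and CDKN2D). Between the constructs it gave none to 8 of 10 (all but CCND3 and CDK4). No call could be made for these members there. The number of genes called over all genes did depend on the pairing. For the fusion against EV it was 1, and 3 with the block in edgeR, 3 with DESeq2, 29 with DESeq2 and the block and 2 with no filter on low counts. For MXD3 against EV it was 1, and 45, 3 and 243 in the first 3 of these settings, and 1 to 2 with a library left out (2 without MXD3 replicate 2). Between the constructs it was 0, and 1, 1, 11 and 1. With the block the log2 fold change of CDK6 with the fusion was 0.000 and just below 0, and it was -0.003 with DESeq2, -0.008 with DESeq2 and the block, -0.003 with RLE factors and -0.007 with 4 libraries. CCND3 with MXD3 was -0.002 with the block and -0.006 in DESeq2 with it. CDKN2C between the constructs was 0.001 with halved counts.

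Of 180 plasmid values of the members with a library left out, 32 changed direction. These fits had no block, so the group that lost a library held a single replicate number. Its comparisons then mixed plasmid and replicate number, and the part of the replicate number in these changes was not tested. With the fusion against EV, values ran from -0.081 to 0.955 for CCND1, -0.235 to 0.006 for CCND3, -0.102 to 0.097 for CDK6, -0.250 to 0.365 for CDKN1A, -0.140 to 0.068 for CDKN1B, -0.992 to 0.285 for CDKN1C, -0.105 to 0.294 for CDKN2C and -0.480 to 0.024 for CDKN2D. With MXD3 they ran from -0.116 to 0.853 for CCND1, -0.118 to 0.024 for CCND2, -0.151 to 0.15 for CCND3, -1.002 to 0.080 for CDKN1C, -0.044 to 0.291 for CDKN2C and -0.163 to 0.223 for CDKN2D. Between the constructs they ran from -0.472 to 0.607 for CCND1, -0.256 to 0.044 for CCND3, -0.498 to 0.087 for CDKN1A, -0.051 to 0.157 for CDKN1B, -0.635 to 0.787 for CDKN1C, -0.220 to 0.180 for CDKN2C and -0.495 to 0.008 for CDKN2D. Inside the replicate pairs, with all libraries kept, CCND1 was above EV throughout. Its log2 ratios there were 0.391 and 0.546 with the fusion and 0.358 and 0.41 with MXD3. CDK4 kept its direction in all 3 plasmid comparisons under every alternative run.

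Between replicate numbers 5 members were called, 3 with no group term (CCND3 at adjusted p = 0.0626 and CDKN1A at 0.0799 were lost, edgeR), and 3 to 4 with a library left out, where 2580 to 4424 genes were called in place of 4499 (2580 without STIM1::MXD3 replicate 1, 2902 without STIM1::MXD3 replicate 2). CCND1 stayed between 0.836 and 0.911, CDKN1C between -1.198 and -0.771, CCND2 ran from -0.040 to 0.058 and CDK4 from -0.033 to 0.017. With 2 libraries per group and no block, intervals of the plasmid comparisons limit what could be seen most for CDKN1C and CCND1. Their SE for the fusion against EV was 0.479 and 0.441 without the block, and 0.137 and 0.161 with it. With the block CDKN2D had the largest SE of the members in that comparison, at 0.177. An interaction of plasmid and replicate number was not run, since it leaves no residual degrees of freedom.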
